A study of Mus musculus with 2 samples.

Results

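Ventral-type mature olfactory sensory neurons were studied in single-cell RNA profiles of mouse olfactory epithelium, the sheet of receptor neurons and supporting cells that lines the nose. Members were chosen by the measured counts of 6 genes. They were the cells with 5 or more UMIs (unique molecular identifiers, each a counted transcript) of Omp, at most 2 of Gap43, under 0.3% of UMIs from Cyp2g1 and Cyp2a5 together, at least 1 UMI of Ncam2 and none of Nqo1. The rule found 368 cells among 8298 with no fewer than 1000 UMIs and 500 genes and with mitochondrial UMIs of 10% or less, out of 12491 deposited barcodes. The tissue came from a male C57BL/6 mouse whose left nostril was closed at postnatal day 14 (unilateral naris occlusion), and it was taken at postnatal day 28; the protocol speaks of a single animal, the design text of animals in the plural. The closed and the open side gave 1 library each, both of frozen, dissociated cells of the whole epithelium after removal of dead cells. Barcodes carry a suffix of 1 or 2, and neither the labels nor the files tie a suffix to a side, so the libraries are called library 1 and library 2 and no side was inferred from any gene. With 1 library each there was no test between them, and every interval below is an exact 95% interval that covers counting error only.

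A mature olfactory neuron expresses a single odorant receptor gene out of a very large family, and its axon joins those of other neurons with that receptor in the olfactory bulb. Which receptors a neuron can choose depends on where it lies: class I receptors and a part of class II belong to the dorsal zone, marked by the enzyme Nqo1, while most class II receptors belong to ventral and lateral zones, marked by the adhesion molecule Ncam2 (also called OCAM). Odour binding opens a cyclic nucleotide gated channel through cyclic AMP, and the level of several neuronal genes follows how active the neuron is.

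Library 1 gave 166 members, 5.47% (4.69 to 6.35) of its kept cells, and library 2 gave 202, 3.84% (3.33 to 4.39). As a share of mature neurons, the cells that met the same limits on Omp, Gap43 and the Cyp genes whatever their zone, members made up 32.6% (28.6 to 36.9) in library 1 and 33.2% (29.4 to 37.1) in library 2, shares whose intervals overlap almost fully. Members carried a median of 5679.5 UMIs in library 1 and 5087.5 in library 2. Another 179 mature neurons had Nqo1 and no Ncam2 and are called dorsal-type (72 and 107 cells, median 4734.5 and 4477 UMIs), 567 had neither gene, and 4 had both. The libraries shared 12 barcode sequences, none of them in a member.

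The values that chose the members are given as a description. Ncam2 was sparse: 252 members had a single UMI, 81 had 2 and 35 had 3 to 5, and the 567 mature cells with no Ncam2 and no Nqo1 lie just outside the limit. Omp, the olfactory marker protein, had a median of 26 UMIs and a maximum of 81, with no member at exactly 5 UMIs and 1 cell just outside at 4. Gap43, a protein of growing axons, was at 0 in 272 members and at its limit of 2 in 36, while 27 cells with 3 UMIs lay just outside. Beyond the rule, Stoml3, a membrane protein of olfactory cilia, was detected in 366 of 368 members and Cnga2, the main subunit of the cyclic nucleotide gated channel, in 346. The receptors and zone genes below bear on the word ventral in the label.

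An odorant receptor could be assigned to 337 of the 368 members (153 and 184), where the most abundant receptor had at least 3 UMIs and at least 2 of every 3 receptor UMIs in the cell. The assigned receptor had a median of 46 UMIs, so a cell rarely left doubt about its receptor, although reads of near-identical receptor copies could have been split or lost in the authors' counting. These cells used 203 different receptor genes, of which 125 were seen in a single member, 47 in 2 and 31 in 3 or more. Of the 203, 49 were found in both libraries, 113 being present in library 1 and 139 in library 2. The most frequent were Olfr1112, Olfr1264, Olfr6 and Olfr728 with 6 members each, then Olfr1260, Olfr1336, Olfr286 and Olfr398 with 5. No receptor stood out as dominating the population.

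Class I receptors, the family that arose in aquatic vertebrates and sits in a single cluster on chromosome 7 (here Olfr543 to Olfr692), were rare among members. They were assigned in 6 of 337 members, 1.78% (0.656 to 3.83), against 60 of 170 dorsal-type cells, 35.3% (28.1 to 43.0). The shares were 1.31% and 2.17% in libraries 1 and 2 for members and 29.4% and 39.2% for dorsal-type cells, so the gap was present within each library. The 6 class I cells expressed Olfr686 (3 cells), Olfr571 (2 cells) and Olfr628 (1 cell). The Olfr628 cell was assigned on 3 UMIs of its receptor, the minimum, and 1 Olfr686 cell had 15 among 23076 UMIs. Found in both types were 5 receptors, Olfr1225, Olfr1228, Olfr1275, Olfr222 and Olfr741. They are 2.46% of the 203 receptors of members and 4% of the 125 of dorsal-type cells. Of the 203, 125 were seen in a single member, which by itself limits how many can be found in both types. Between the 2 libraries of members, 49 were shared. No expected overlap of the types was computed.

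The 2 types also differed in the chromosomes of their receptors, which for chromosome 7 restates the class I gap in part. Chromosome 2, which carries the largest set of class II receptor genes in this annotation, held the receptor of 29.7% (24.8 to 34.9) of members and of 14.7% (9.75 to 20.9) of dorsal-type cells. Chromosome 7 held the receptor of 18.7% (14.7 to 23.3) of members and 43.5% (36.0 to 51.3) of dorsal-type cells. These are 63 members and 74 dorsal-type cells, and the class I cluster on this chromosome accounts for 6 and 60 of them. The chromosome 7 gap is thus not separate from the class I gap. Chromosome 9 held the receptor of 2.97% and 16.5%. The annotation holds 294 receptor genes on chromosome 2, 244 on chromosome 7 and 132 on chromosome 9. Shares were compared between the types and not with these gene numbers. A higher share in members is therefore relative to dorsal-type cells only. Receptors on chromosome 16 were used by 19 members (5.64%) and those on chromosome 15 by 11 (3.26%). None of the 170 dorsal-type cells used either, with an upper limit of 2.15% for each. Chromosomes 14, 17 and 19 held the receptor of 9.50%, 4.75% and 4.75% of members and of 4.71%, 0.588% and 0.588% of dorsal-type cells, with overlapping intervals for each.

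**Figure D1:**
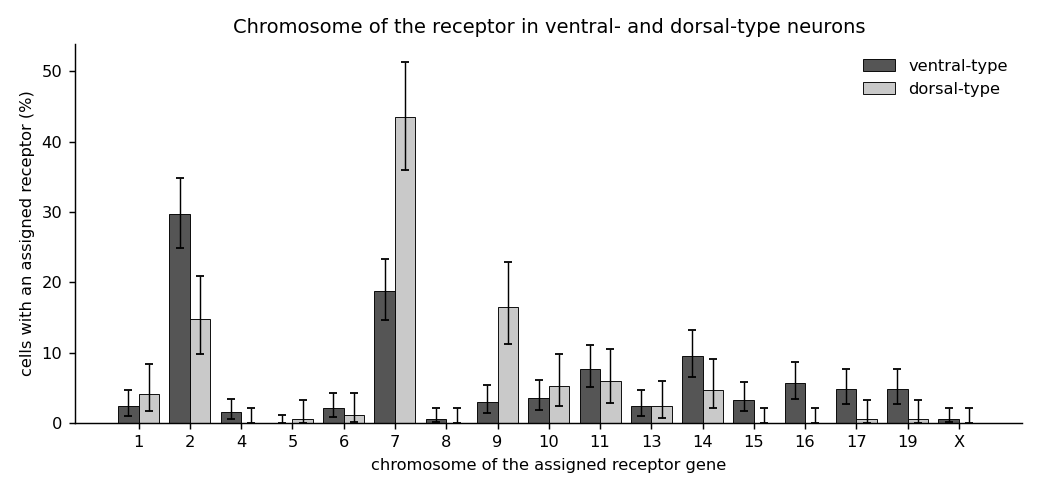
Share of cells with an assigned receptor (y axis, percent) by the chromosome of that receptor gene (x axis), for 337 ventral-type members (dark bars) and 170 dorsal-type cells (light bars), both libraries pooled, with exact 95% binomial intervals. Members lead dorsal-type cells on chromosome 2 (29.7% against 14.7%), and dorsal-type cells lead on chromosome 7 (18.7% against 43.5%). Shares are not scaled to the number of receptor genes on each chromosome. Chromosome 7 carries the class I cluster, used by 6 members and 60 dorsal-type cells.

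The 567 mature cells with neither Ncam2 nor Nqo1 looked more like the members than like the dorsal-type cells. Of the 535 with an assigned receptor, 267 used a receptor that was otherwise seen only in members, 18 one seen only in dorsal-type cells, 9 one seen in both and 241 one seen in neither. Their class I share was 1.87% (0.900 to 3.41). Many of these cells thus shared receptors with the members, whose 203 receptors gave more to match than the 125 of dorsal-type cells. For the 241, receptor use does not place the cells. The limit of 1 Ncam2 UMI falls among cells with similar receptors. Whether all 567 belong with the members was not tested.

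Genes other than those of the rule were then compared between members and dorsal-type cells inside each library, as CPM, the UMIs of a gene summed over the cells and scaled to a fixed total of 1000000. Of 4234 genes tested, which here means compared with no p-value (at least 30 CPM and 20 UMIs in the higher type in each library), 46 were at least 2-fold higher in members in both libraries, which is 1.09%, and 16 were at least 2-fold higher in dorsal-type cells, which is 0.378%. Because a gene could enter through its higher type alone, the counts were repeated with at least 30 CPM in the mean of both types in each library, a filter chosen after seeing the data, and 26 genes were then higher in members and 14 in dorsal-type cells, of 4053. Of the 9 genes on the list for the ventral epithelium, 5 could be compared under either filter; Nfix, Nfib, Nfia and Nrp2, all under 30 CPM in dorsal-type cells, are given below, and the netrin receptor gene Unc5b stood at 53.0 and 60.3 CPM in members and 105 and 68.9 CPM in dorsal-type cells. Of the 8 genes on the list for the dorsal epithelium 2 could be compared, Acsm4 and Robo2, of which Acsm4 entered through dorsal-type cells alone.

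The nuclear factor I genes, transcription factors known to shape the zonal choice of receptors, showed the gap in all 3 genes measured. Nfix was at 272 (241 to 305) CPM in library 1 and 343 (309 to 379) CPM in library 2 in members, and at 8.53 and 27.6 CPM in dorsal-type cells. Nfib was at 183 and 189 CPM in members against 17.1 and 17.7 CPM. Nfia was at 90.6 and 87.8 CPM against 8.53 and 19.7 CPM. In each of the 3, both libraries of members lay above both libraries of dorsal-type cells by more than the counting intervals.

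Guidance receptors split in opposite directions. Nrp2, a receptor for secreted semaphorins that acts in sorting olfactory axons between the upper and lower bulb, was at 139 and 116 CPM in members and 22.8 and 17.7 CPM in dorsal-type cells. Robo2, a receptor for Slit proteins known from dorsal olfactory axons, was at 56.8 and 64.9 CPM in members and 191 CPM in both libraries of dorsal-type cells. Of 19 tested genes for axon sorting and guidance, these were the only ones past 2-fold in either direction in both libraries, and the median log2 ratio of the 19 was -0.13.

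Among other genes higher in members, the LIM-domain gene Pdlim1 was at 107 and 121 CPM and was not detected among the UMIs of dorsal-type cells of library 1, where it was at least 12.5-fold lower taking 3 counts as the floor of that group; in library 2 dorsal-type cells had 5.91 CPM. Cidea, a lipid droplet protein, was at 197 and 169 CPM against 22.8 and 23.6 CPM, and Sytl1, a synaptotagmin-like vesicle protein, at 242 and 176 CPM against 54.0 and 27.6 CPM. Gldc, the glycine decarboxylase of mitochondria, was at 194 and 156 CPM against 71.1 and 29.5 CPM, and Dhrs3, a retinaldehyde reductase, at 43.4 and 59.4 CPM against 11.4 and 11.8 CPM. The remaining genes of the 15 with the widest gap were C130074G19Rik, Stk26, Mdga2, Gm42912, Ankrd9, Mturn and Cep41, between 32.8 and 77.7 CPM in members.

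Acsm4, an acyl-CoA synthetase long used as a marker of the dorsal zone, gave the widest gap the other way. Members had 2.89 and 2.74 CPM, which is 3 UMIs in each library, and dorsal-type cells 398 and 325 CPM, a log2 ratio of -6.68 (-9.40 to -5.53) in library 1 and -6.44 (-9.18 to -5.32) in library 2. Cartpt, the precursor of a neuropeptide, was at 731 and 856 CPM in members and 3135 and 2710 CPM in dorsal-type cells. Hs3st5, a heparan sulfate sulfotransferase, and Gpc1, a heparan sulfate proteoglycan of the cell surface, were at 16.4 and 20.1 CPM and at 26.0 and 22.9 CPM in members, against 102 and 72.9 CPM and 85.3 and 80.8 CPM. Ppa1, an inorganic pyrophosphatase, was at 243 and 254 CPM against 717 and 953 CPM. The others were 2810001G20Rik, Serinc2, Acss2, Socs2, Cdkn1a, Pth2, Sesn3, Snx10 and Slc16a11. Their gaps were smaller, and the last of them, Slc16a11, had log2 ratios of -0.81 and -0.85, short of 2-fold.

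**Figure D2:**
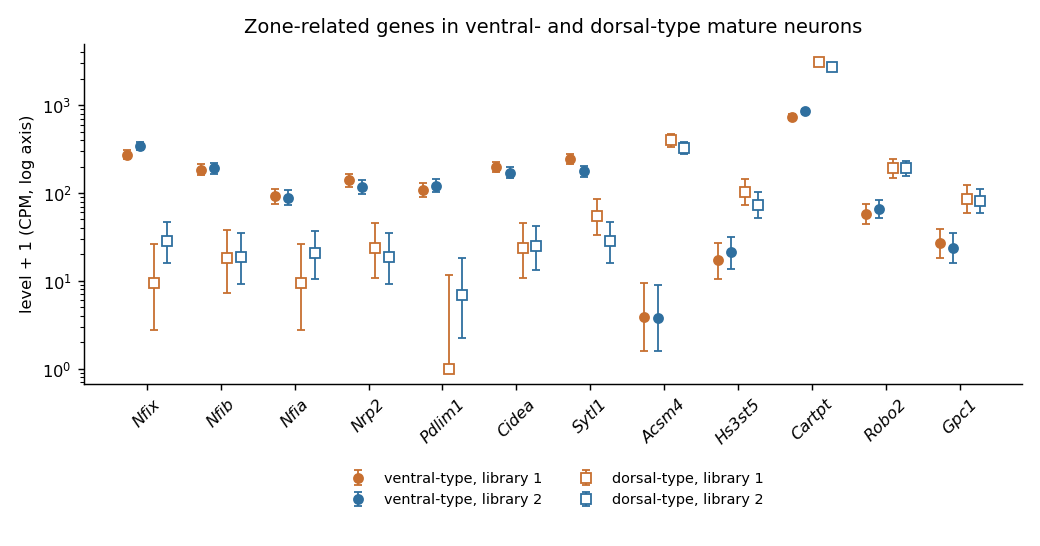
Level plus 1 CPM (log axis) of 12 genes that differed between the types, in ventral-type members (filled circles) and dorsal-type cells (open squares) of library 1 (orange) and library 2 (blue), with exact 95% Poisson intervals of the summed UMIs. Nfix, Nfib, Nfia, Nrp2, Pdlim1, Cidea and Sytl1 are higher in members in both libraries, and Acsm4, Hs3st5, Cartpt, Robo2 and Gpc1 are lower in both.

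Gene lists of the olfactory machinery had no gene past 2-fold between the types in both libraries. Over all 4234 genes 1.09% were higher and 0.378% lower in members by that limit. Finding none in lists this short therefore does not set these genes apart. None of 14 tested transduction genes passed 2-fold in either direction in both libraries (median log2 ratio -0.06), and the same held for 5 genes of receptor trafficking, 11 transcription factors of olfactory neurons such as Lhx2 and Ebf2, 22 cilia transport genes, 16 synapse genes and 18 genes of oxidative phosphorylation. The cells with neither Ncam2 nor Nqo1 had Nfix at 294 and 295 CPM, Nrp2 at 124 and 103 CPM and Acsm4 at 23.9 and 19.6 CPM. These levels were on the members' side of each gap, although Acsm4 was higher than in members in both libraries. Whether a part of these cells is dorsal-type was not tested.

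The upstream sequences of the 2 dorsal-type genes with known zonal or peptide roles are shown because each holds a motif of an olfactory regulator. They are the 250 bases before the gene start in RefSeq (build GRCm38.p6), written 5′ to 3′ on the gene's strand. Capitals mark the core bound by Ebf factors, TCCC and GGGA parted by 2 bases, and TGACGTCA, the cyclic AMP response element, which contains its shorter core TGACG on both strands; motifs were sought on both strands.
Acsm4, chr7:119689776-119690025, plus strand: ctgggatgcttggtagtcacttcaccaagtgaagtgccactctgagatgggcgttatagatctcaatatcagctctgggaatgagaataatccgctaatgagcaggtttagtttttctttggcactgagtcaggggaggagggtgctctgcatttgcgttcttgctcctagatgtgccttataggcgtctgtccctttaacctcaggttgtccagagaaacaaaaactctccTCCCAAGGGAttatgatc
Cartpt, chr13:99900684-99900933, minus strand: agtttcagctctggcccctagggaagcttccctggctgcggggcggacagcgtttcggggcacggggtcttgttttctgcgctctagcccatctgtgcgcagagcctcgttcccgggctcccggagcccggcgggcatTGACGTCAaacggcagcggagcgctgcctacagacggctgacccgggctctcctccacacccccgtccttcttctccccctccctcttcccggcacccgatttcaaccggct
Over all 32851 RefSeq windows of this length, the Ebf core was in 0.779% and TGACGTCA in 1.55%. Among the 13 of 15 genes named as higher in dorsal-type cells that had a window, 1 held the Ebf core and 1 held TGACGTCA. The palindrome of nuclear factor I, TTGGC and GCCAA parted by 5 bases, was in 0.0365% of all windows and in none of the 12 windows of genes named as higher in members, which says only that these letters are not in these windows.

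Among the members, S100a5 and Calb2 were uneven from cell to cell. Both encode calcium-binding proteins; S100a5 is known to rise with odour-driven activity, and Calb2 (calretinin) was placed on the list of genes lowered by it. S100a5 ranged from 0 to 28827 CPM among the 166 members of library 1 with a median of 160 CPM, and from 0 to 116751 CPM among the 202 of library 2 with a median of 9701 CPM. It was at 0 in 45.2% of members of library 1 and 14.4% of those of library 2. In library 1 the 20 members with most S100a5 held 78.7% of its UMIs, against 41.3% in library 2. Calb2 went the other way, with medians of 1227 and 0 CPM and with 21.7% and 60.9% of members at 0. Omp was even by comparison, with medians of 4855 and 5000 CPM.

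To compare shares of cells at equal depth, each cell was thinned to 3000 UMIs, which left 164 and 190 members and dropped 2 and 12 shallower ones. At least 3 UMIs of S100a5 were found in 53 members of library 1, 32.3% (25.2 to 40.1), and in 145 of library 2, 76.3% (69.6 to 82.2). Without thinning the shares were 39.2% and 81.2%. Dorsal-type cells gave 8.57% (3.21 to 17.7) in library 1 and 80.2% (71.1 to 87.5) in library 2. Sustentacular-type cells, supporting cells that should lack the gene, gave 0% and 1.02% at the same depth. Counted from 1 UMI, S100a5 was in 5.37% and 18.6% of sustentacular-type cells and in 45.7% and 81.6% of members. Calb2, also counted from 1 UMI, was detected in 75.0% of members in library 1 and 35.8% in library 2. It was in 85.7% and 42.6% of dorsal-type cells and in 4.06% and 5.95% of sustentacular-type cells.

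S100a5 and Calb2 ran against each other but did not exclude each other. In library 1, 27 members had S100a5 (3 or more UMIs) without Calb2, 97 had Calb2 without S100a5, 26 had both and 14 had neither. Of its 53 members with S100a5, 26 thus also had Calb2. In library 2 the numbers were 114, 37, 31 and 8. The Spearman correlation between the 2 genes was -0.61 over the 164 members of library 1 and -0.63 over the 190 of library 2, cells of the same library and depth. The negative relation was thus of similar size in both libraries, while the balance between the states was shifted.

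**Figure D3:**
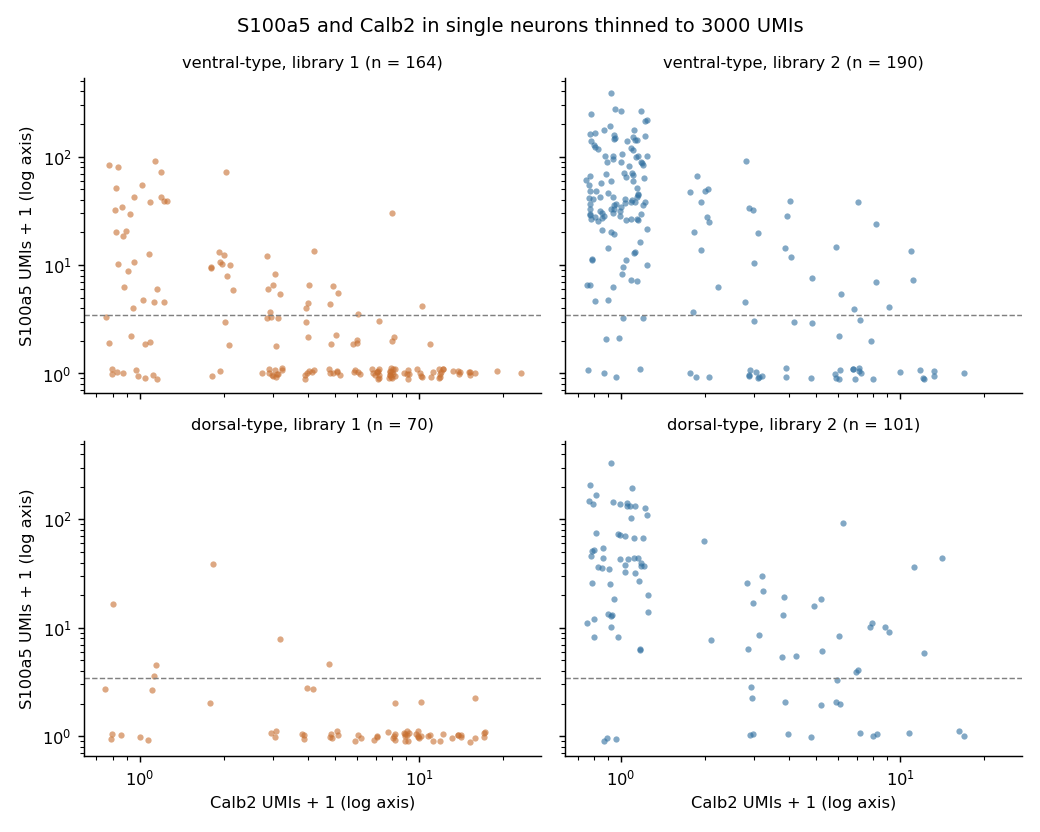
S100a5 UMIs plus 1 (y axis, log) against Calb2 UMIs plus 1 (x axis, log) in single neurons thinned to 3000 UMIs, for ventral-type members (top) and dorsal-type cells (bottom) of library 1 (left, orange) and library 2 (right, blue); points are jittered and the dashed line separates cells with at least 3 S100a5 UMIs. Library 1 holds 53 of 164 members above the line and library 2 holds 145 of 190, of which 27 and 114 have no Calb2 UMI.

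The genes that separated the 2 states inside a library were partly those that separated the libraries. In this comparison, S100a5 members are those without Calb2, 27 in library 1 and 114 in library 2. Calb2 members are those with fewer than 3 S100a5 UMIs, 97 and 37. Members with both genes or neither were left out, so the contrast is between the ends of the range. Kirrel2, an adhesion molecule that sorts axons of like activity, was at 265 CPM in the S100a5 members and 26.0 CPM in the Calb2 members of library 1, and at 372 and 95.7 CPM in library 2. Pcp4l1, a small calmodulin-regulating protein, was at 2094 and 65.0 CPM in library 1 and 2506 and 196 CPM in library 2. Kirrel3, the related adhesion molecule with the opposite dependence on activity, was at 55.2 CPM in S100a5 members and 188 CPM in Calb2 members of library 1, and at 28.2 and 113 CPM in library 2. Pde1c, the calcium-dependent phosphodiesterase of olfactory cilia, was at 558 and 266 CPM in library 1 and 528 and 278 CPM in library 2. Of the 14 genes other than S100a5 named below as higher in library 2, 11 were higher in the S100a5 members within library 1 and 13 within library 2, where 43.0% and 52.6% of all 3781 genes compared between the libraries were; the counting interval lay above 0 for 6 and 11 of the 14. Of the 14 other than Calb2 named as higher in library 1, 9 and 12 were lower in the S100a5 members, against 56.8% and 47.4% of all genes, with the interval below 0 for 6 in each library. Scgn, the calcium sensor secretagogin, did not follow this split, at 93.9 and 85.5 CPM in library 1 and 26.6 and 39.2 CPM in library 2. Fos and Jun, immediate early genes, were lower in the S100a5 members of both libraries, Fos at 497 against 754 CPM in library 1 and 458 against 892 CPM in library 2. The 9 immediate early genes compared did not move as one. In library 1, 3 were lower in the S100a5 members and 6 higher, among the latter Junb (166 and 83.6 CPM) and Btg2 (105 and 33.4 CPM), whose counting intervals lay above 0. In library 2 all 9 were lower, Junb at 99.6 and 283 CPM and Btg2 at 48.1 and 139 CPM.

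S100a5 levels varied between receptors under most settings, but not with a stricter Ncam2 limit. An intraclass correlation, the share of the variance of log2(CPM + 100) that lies between receptors after centring within each library, was computed over 118 members with the 31 receptors seen at least 3 times. Its median over 6543 genes was 0.00 (95th percentile 0.15), and 34 genes, 0.52%, reached 0.3. Pcp4l1 had 0.615 and S100a5 0.604, followed by Mslnl (a mesothelin-like surface protein, 0.564), Cd55 (a complement regulator, 0.518), Calb2 (0.496), Stoml3 (0.491), Ckb (brain creatine kinase, 0.481), Kirrel3 (0.442), Cartpt (0.422), Tmsb4x (thymosin, an actin-binding protein, 0.409), Kirrel2 (0.406) and Cd9 (a tetraspanin, 0.40). With at least 2 Ncam2 UMIs, which left 19 cells of 5 receptors, S100a5 fell to 0.0496, Cd9 to 0.0157 and Kirrel2 to -0.0961, while Pcp4l1 had 0.516, Calb2 0.46 and Kirrel3 0.67; under the other alternatives S100a5 had 0.504 to 0.62. The zone genes Nfix and Nfib had 0.197 and 0.04, and the maturity marker Omp 0.196. Of 25 tested axon genes 3 reached 0.3 (Kirrel2, Kirrel3 and Efna3), and of 16 transduction genes 2 did (Stoml3 and Pde1c).

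Single receptors show what this means in cells. The 3 members with Olfr1260 in library 1 had S100a5 at 12179, 22078 and 22624 CPM, and the 2 in library 2 had 33113 and 33171 CPM, with Calb2 at 0 in all but 1 cell (146 CPM). The S100a5 levels of this receptor were thus high in both libraries. Members with Olfr728 were the reverse. In library 1 S100a5 was at 0 and 494 CPM with Calb2 at 4352 and 1235 CPM, and in library 2 S100a5 was at 0 in all 4 cells with Calb2 at 3011, 2650, 1429 and 2742 CPM.
Other receptors were low in library 1 and high in library 2. Olfr6 had S100a5 at 0, 146 and 154 CPM in library 1 and at 1075, 32667 and 54797 CPM in library 2. Olfr2 had 0, 0 and 216 CPM in library 1 and 56741 CPM in the only member of library 2. Olfr1112 had 0 in 3 members of library 1 and 166 and 877 CPM in the other 2, against 43301 CPM in 1 member of library 2. Olfr1336 was more moderate, with 0 in the 3 members of library 1 and 3448 and 5651 CPM in library 2.

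Of the 27 receptors with at least 3 members and with cells in both libraries, 17 had a mean S100a5 level of at most 2000 CPM in library 1 and more than that in library 2. Another 6 stayed at or under 2000 CPM in both libraries: Olfr728, Olfr1196, Olfr1297, Olfr1437, Olfr195 and Olfr295. The 4 above it in both were Olfr1260, Olfr729, Olfr285 and Olfr455, and none was above it in library 1 only. The limit of 2000 CPM was chosen after the values were seen. For most of the 27, the mean in at least 1 library is the value of a single cell, such as 3220 CPM for Olfr455 in library 1. This sorting therefore describes few cells per receptor. All 49 receptors found in both libraries were compared whatever their number of cells, many of them with 1 cell in each library. The mean S100a5 level was higher in library 2 for 42, lower for 4 and equal for 3. Its median log2 ratio was 2.86 after adding 100 CPM. Calb2 was higher in library 2 for 5, lower for 38 and equal for 6, with a median of -2.17. Omp was higher for 28 and lower for 21, with a median of 0.19. The library difference was therefore present among cells matched for their receptor.

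**Figure D4:**
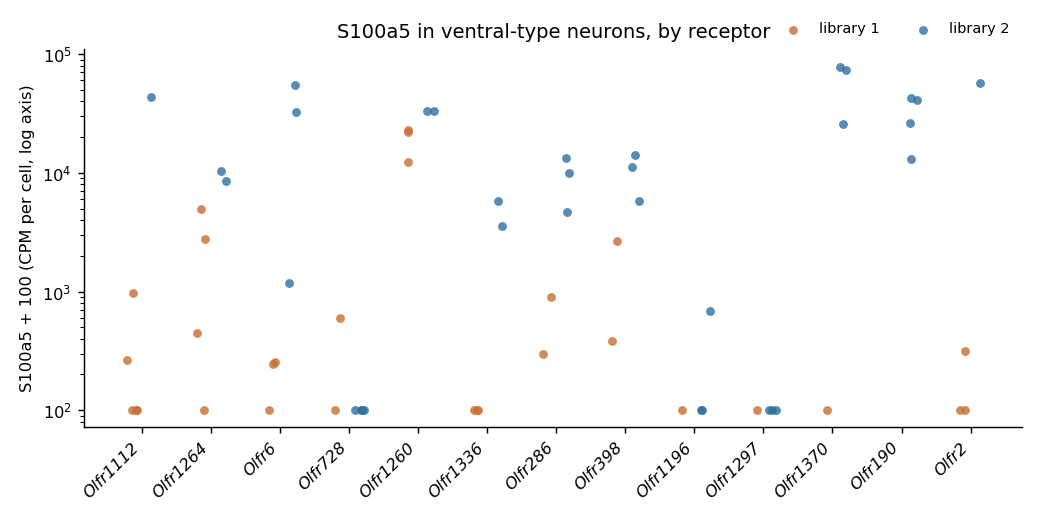
S100a5 level plus 100 CPM (log axis) of each ventral-type member with 1 of the 13 receptors seen in at least 4 members (x axis), in library 1 (orange) and library 2 (blue); points at 100 are cells with no S100a5 UMI. Olfr1260 is high in both libraries, Olfr728 and Olfr1297 are low in both, and Olfr6, Olfr2 and Olfr1112 are low in library 1 and, but for 1 Olfr6 cell, at 32667 CPM or more in library 2.

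Mature cells with neither Ncam2 nor Nqo1 were not used in the rule's contrast, and they allowed the same receptors to be read a further time. Their 3 Olfr1260 cells in library 1 had S100a5 at 11403, 17146 and 17241 CPM and the 2 in library 2 had 21262 and 31902 CPM, all with no Calb2. Their Olfr728 cells, 1 in library 1 and 3 in library 2, had no S100a5 and Calb2 at 657 to 2547 CPM. Olfr6 had S100a5 at 0, 0, 0 and 220 CPM in library 1 and 19242 CPM in the cell of library 2. Across the receptors found in both cell sets, the mean S100a5 level, as log2(CPM + 100), had Pearson's r of 0.789 over 57 receptors in library 1 and 0.857 over 64 in library 2. The corresponding r was 0.886 and 0.872 for Pcp4l1, 0.729 and 0.566 for Mslnl and 0.679 and 0.469 for Calb2, against 0.109 and 0.0893 for Omp. For Stoml3, Ckb, Cartpt and Cd55 it lay between 0.438 and 0.838. Kirrel2 had -0.00478 and 0.455 and Kirrel3 0.129 and 0.199, although both were named above for their intraclass correlation. These are descriptions over receptors whose cells share a library.

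The upstream windows of S100a5 and Pcp4l1, the genes that varied most between receptors, are shown for comparison with those above and under the same conventions. Neither holds TGACG, which was in 17.8% of all windows, or the Ebf core, so neither has capitals. This says only that these letters are not in these windows.
S100a5, chr3:90608272-90608521, plus strand: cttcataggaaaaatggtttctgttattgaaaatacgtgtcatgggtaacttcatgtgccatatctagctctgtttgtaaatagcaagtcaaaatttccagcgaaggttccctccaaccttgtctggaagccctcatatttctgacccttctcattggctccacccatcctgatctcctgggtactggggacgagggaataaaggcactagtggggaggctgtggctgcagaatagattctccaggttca
Pcp4l1, chr1:171196269-171196518, minus strand: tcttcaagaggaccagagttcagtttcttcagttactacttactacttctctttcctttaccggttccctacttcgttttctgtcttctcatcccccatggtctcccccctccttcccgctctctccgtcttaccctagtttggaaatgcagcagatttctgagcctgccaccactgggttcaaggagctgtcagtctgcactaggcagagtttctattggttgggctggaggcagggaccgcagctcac

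Summed over all members, S100a5 was at 2383 (2290 to 2479) CPM in library 1 and 14470 (14245 to 14697) CPM in library 2. The log2 ratio, library 2 over library 1 after adding 1 CPM, was 2.60 (2.54 to 2.66). Dorsal-type cells had 370 CPM in library 1 and 14436 CPM in library 2, a log2 ratio of 5.28 (5.04 to 5.55). The summed levels were close in library 2, although the median cell had 9701 CPM among members and 5888 CPM among dorsal-type cells, and in library 1 the summed level was higher in members. Pcp4l1 also had the larger library ratio in dorsal-type cells, with 506 and 1582 CPM in members (log2 ratio 1.64) and 28.4 and 1391 CPM in dorsal-type cells (5.56), and so did Kirrel2, with 70.3 and 271 CPM in members (1.93) and 11.4 and 191 CPM in dorsal-type cells (3.96), both genes being higher in members in each library. Thinned to 3000 UMIs, Pcp4l1 had at least 1 UMI in 26.8% and 66.8% of members and in 57.7% and 54.6% of sustentacular-type cells. Dorsal-type cells gave 8.57% and 50.5%. Neurons of library 1 thus lay below sustentacular-type cells, which are no background level for this gene. At least 3 UMIs were found in 14.6% and 49.5% of members and in 7.34% and 6.42% of sustentacular-type cells. The difference in size between the types was not tested.
The S100a5 ratio depended on the Ncam2 limit. Members with a single Ncam2 UMI had S100a5 at 2337 and 17300 CPM, and those with 2 or more had 2482 and 9354 CPM, so that the log2 ratio was 1.91 (1.80 to 2.03) with at least 2 Ncam2 UMIs required.

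Of 3781 genes tested between the libraries in members (at least 50 CPM in the higher library and 50 UMIs over both), 43 were at least 2-fold higher in library 2, 1.14%, and 36 at least 2-fold lower, 0.952%. The 36 fell to 19 without the member with most UMIs, described below, and to 17 without the 5% of cells with most UMIs. The lists of genes known to rise or fall with odour-driven activity were chosen with earlier results of these data known, so their counts are a description only. On the list of those that rise, the median log2 ratio of the 7 tested genes was 1.54, against 0.00 over all genes. Of these 7 genes, 5 were past 2-fold, all higher in library 2. They were S100a5, Pcp4l1, Kirrel2, Lrrc3b, a leucine-rich repeat membrane protein (50.1 and 148 CPM, log2 ratio 1.54), and Sema7a, a membrane-anchored semaphorin (36.6 and 84.1 CPM, 1.18), which entered through library 2 alone; with a mean of 50 CPM over both libraries required, the count was again 5 of 7, where 0.777% of all 3475 genes were 2-fold higher. The other 2 were Cidea at 197 and 169 CPM and the protocadherin gene Pcdh10 at 148 and 123 CPM. Of the 6 genes on the list of those lowered by activity, 2 were at least 2-fold lower in library 2, Calb2 (1271 and 521 CPM, -1.28) and Kirrel3 (134 and 54.8 CPM, -1.27), with a median of -0.53. Efna5, an ephrin of olfactory axons, was at 223 and 117 CPM (-0.93), while the plexin gene Plxna1 was at 76.1 and 108 CPM.

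Among synaptic genes, Dlg2, a scaffold of synapses, was at 31.8 and 129 CPM (1.99), and Syn2, a synaptic vesicle protein, at 27.0 and 68.6 CPM (1.31); both entered through library 2 alone, and with a mean of 50 CPM over both libraries required, Dlg2 was the 1 of 15 past 2-fold. Other named genes higher in library 2 were the transcription factor Etv5 (19.3 and 56.7 CPM), Dpysl3, a protein of growing neurites (26.0 and 61.2 CPM), the orphan receptor gene Gpr158, the RNA-binding gene Celf3, the phosphatase gene Ocrl, the transporter gene Slc6a17, the ion channel gene Mcoln3 and Rc3h1, each between 24.1 and 39.5 CPM in library 1. Named genes lower in library 2 included Scgn (81.9 and 29.3 CPM, -1.45), Rtkn (53.9 and 21.0 CPM, -1.32), Entpd2, an ectonucleotidase (53.9 and 22.9 CPM, -1.20), and Dcdc2a, a doublecortin-domain protein of cilia (716 and 389 CPM, -0.88). Crym, St3gal4, Etv3, F8, Trmt12, Ccdc126, Saysd1 and AC078895.1 completed the list, with log2 ratios from -1.15 to -0.88.

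**Figure D5:**
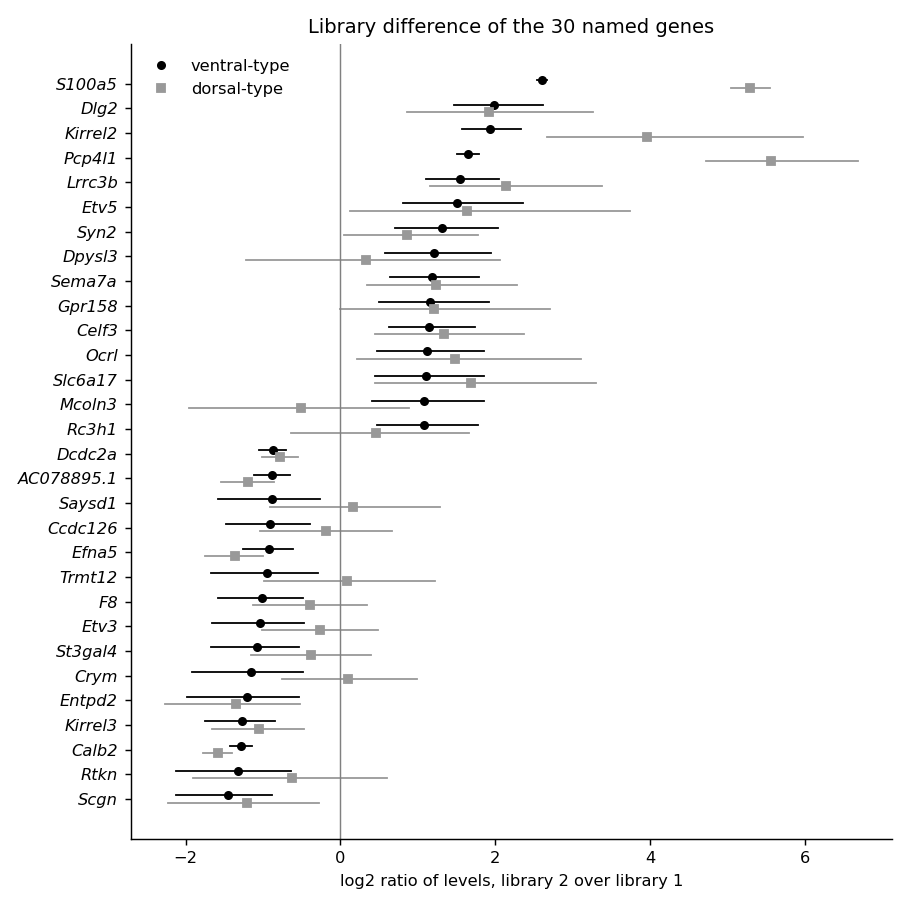
Log2 ratio of levels, library 2 over library 1 (x axis), of the 30 named genes (y axis) in ventral-type members (black circles) and dorsal-type cells (grey squares), with exact 95% counting intervals as lines. S100a5 (2.60 against 5.28), Kirrel2 (1.93 against 3.96) and Pcp4l1 (1.64 against 5.56) have non-overlapping intervals in the types, and Dpysl3 and Mcoln3 are among the genes whose dorsal-type interval spans 0.

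Transduction genes were lower in library 2 more often than not, by amounts under 2-fold. Of 15 tested, 3 were higher and 12 lower, with a median log2 ratio of -0.10, where 50.7% of all tested genes were higher. Stoml3 was at 7366 and 4633 CPM (-0.67), the channel subunits Cnga2 and Cnga4 at 775 and 580 CPM (-0.42) and at 309 and 208 CPM (-0.57), and Adcy3, the adenylyl cyclase of olfactory cilia, at 695 and 579 CPM (-0.26). Pde1c was at 331 and 396 CPM (0.26), and the chloride channel gene Ano2 at 225 CPM in both. Dorsal-type cells had log2 ratios of -0.76 for Stoml3, -0.46 for Cnga2 and -0.37 for Cnga4. Of the tested immediate early genes (9), unfolded protein response genes (10), cilia transport genes (20), olfactory transcription factors (11), receptor trafficking genes (5), survival genes (7) and oxidative phosphorylation genes (18), none passed 2-fold in either direction. Over all 3781 genes 1.14% were 2-fold higher and 0.952% 2-fold lower in library 2, so these short lists are not set apart by this.

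Markers of other cells moved with the libraries as well. The 8 sustentacular markers summed to 180 CPM in members of library 1 and 559 CPM in those of library 2, with 41.3% of the latter in 3 cells, and S100a5 in sustentacular-type cells themselves was at 19.2 and 78.6 CPM. The 12 immune markers summed to 2261 and 716 CPM, of which 99.1% and 90.8% were in 3 cells of each library, with 4 and 3 of the markers at 0. A single member of library 1 held 80934 UMIs, 7.80% of all member UMIs of its library, and 967 UMIs of the neutrophil gene S100a8. Without it, the log2 ratio of S100a5 was 2.49 and the number of genes at least 2-fold lower in library 2 fell from 36 to 19. Alcam, the adhesion gene on the dorsal and axon lists, was at 74.2 and 12.8 CPM, but 98.7% of its UMIs in library 1 were in 3 cells. The part of these markers in other results was not tested.

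A small part of the members did not carry an odorant receptor. In 26 members (10 and 16) all receptor genes together had fewer than 3 UMIs, at a median depth of 5301 UMIs. Of these, 9 had at least 3 UMIs of Gucy1b2, a soluble guanylate cyclase subunit that marks a small set of olfactory neurons outside the canonical pathway, and 2 had at least 3 UMIs of Gucy2d, the receptor guanylate cyclase of another such set. In the 9 Gucy1b2 cells the gene was at 1629 CPM, against 0.522 CPM in the 337 members with a receptor. Cnga2 was found in 9 of 9 (323 CPM), Gng13 in 9 (6727 CPM) and Gnal in 7 (274 CPM). Adcy3 was found as a single UMI, and Cnga4 and Trpc2 were at 0. The members with a receptor had Gng13 at 12144 CPM and Gnal at 1813 CPM. Gucy2d reached 3 UMIs in 4 members in all. There Car2, the carbonic anhydrase known from these neurons, was at 16820 CPM. Cnga2, Cnga4, Gng13, Gnal and Adcy3, all parts of the canonical pathway, were at 0, with an upper limit of 134 CPM each.
Together these 13 cells were 3.53% of the members, 4 in library 1 and 9 in library 2. The label of canonical olfactory neuron was not borne out in the Gucy2d cells. In the Gucy1b2 cells it was borne out only in part, since Cnga2, Gng13 and Gnal were present while Cnga4 was absent and Adcy3 nearly so. None of the 179 dorsal-type cells had 3 UMIs of either gene, while 4 of the 567 cells with neither zone marker did, all in library 1. Gng8, a G protein subunit counted among the immature markers, was at 27.9 and 126 CPM in members, and the 4 Gucy2d cells held 3197 CPM of it. With only receptor-assigned members, the log2 ratio of S100a5 was 2.84.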

How the data were processed

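The authors processed the reads with Cell Ranger 3.0.2 on mm10, per the submitters' processing notes, and deposited a matrix of UMI counts per gene and cell barcode that aggregates both libraries. Whether that step equalised depth is not given in the sources. From these counts, UMIs were summed over the cells of a type in each library and given as CPM with exact Poisson intervals. Ratios were taken after adding 1 CPM, with exact binomial intervals, and shares of cells have Clopper-Pearson intervals. PCR and cell capture add error that these do not cover. Doublets were not called; leaving out the 5% of cells with the most UMIs was an alternative. Computation used scipy 1.17.1, numpy 2.4.6, pandas 2.3.3 and matplotlib 3.10.9 under Python 3.11.15.

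Named genes were the 15 with the largest library ratio in each direction, the 15 with the largest smaller ratio between types in each direction, and the 12 with the highest intraclass correlation. Odorant receptor, mitochondrial, ribosomal and Y-linked genes and Xist were left out, as were genes with over 25% of UMIs in 3 cells; other X-linked genes were kept. The members and lists were chosen with earlier results of these data known. The scripts were tested on simulated data, where 100% of 4-fold changed genes were recovered among 3781 in the library comparison.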

Additional observations from a re-analysis of the deposited data

Results flagged for a closer look

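Ptn, which encodes the growth factor pleiotrophin, went down from library 1 to library 2 in ventral-type members (261 to 218 CPM, log2 ratio -0.26) and up in dorsal-type cells (321 to 459 CPM, 0.51). Cartpt went up in members (731 to 856 CPM, 0.23) and down in dorsal-type cells (3135 to 2710 CPM, -0.21). Klhdc2, a substrate adaptor of a ubiquitin ligase, went up in members (48.2 to 72.2 CPM, 0.57) and down in dorsal-type cells (117 to 67.0 CPM, -0.79). In each case the counting intervals of the 2 types exclude 0 on opposite sides, and the difference between the types was not tested.

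Outside the cell filter, 28 barcodes (17 in library 1 and 11 in library 2) met the gene limits of the rule. All had over 10% mitochondrial UMIs, at medians of 12.2% and 14.1%, and their S100a5 level was 3452 and 8514 CPM.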

How the results depend on the processing

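No paired analysis was possible because there was 1 library per side and no label that ties a barcode suffix to a side. Over 135 alternative values of 12 main results, 93 stayed within the main interval or within 1.5 times the main count and 42 moved. Only the log2 ratios of S100a5 and Calb2 could turn direction, since the other main results are shares and counts, and neither ratio did. The share of members was 9.87% and 5.75% (libraries 1 and 2) with at most 5% mitochondrial UMIs, 4.07% and 2.67% with no cell filter, 1.78% and 1.18% with at least 2 Ncam2 UMIs, 3.92% and 2.91% with no Gap43, 6.39% and 4.58% after thinning, and 4.47% in library 2 with at least 2500 UMIs. The S100a5 log2 ratio was 3.09 with at most 5% mitochondrial UMIs, 2.52 with no cell filter, 1.91 with at least 2 Ncam2 UMIs, 2.86 with no Gap43, 2.77 after thinning, 2.75 with equal weight per cell, 2.84 with receptor-assigned cells only and 2.49 without the largest member. For Calb2 it was -0.72 with at least 2 Ncam2 UMIs, -1.44 after thinning and -1.46 with equal weight. Genes at least 2-fold lower in library 2 numbered 55 with at most 5% mitochondrial UMIs, 58 with no Gap43, 17 without the 5% of cells with most UMIs, and 19 with at least 2 Ncam2 UMIs, with equal weight or without the largest member. With no filter on low genes, 1161 were higher and 924 lower in library 2, 604 were higher in members and 187 in dorsal-type cells, since genes of few UMIs then enter. With the filter on the mean of both groups, 27 genes were higher in library 2 and 26 higher in members. Genes higher in members numbered 30 with at least 2 Ncam2 UMIs, and those higher in dorsal-type cells 10 after thinning. Genes with an intraclass correlation of 0.3 or more numbered 149 (at most 5% mitochondrial UMIs), 503 (at least 2 Ncam2 UMIs), 104 (no Gap43) and 59 (at least 4 cells per receptor), all with fewer cells. With at least 2 Ncam2 UMIs 68.3% of members in library 2 had 3 S100a5 UMIs, and from 1 UMI 45.7% did in library 1. Of the named genes, the intraclass correlation of Cd55 was -0.0632 with at most 5% mitochondrial UMIs, and with at least 2 Ncam2 UMIs (19 cells of 5 receptors) it was 0.0496 for S100a5, 0.0157 for Cd9, 0.193 for Cd55, 0.294 for Cartpt, 0.322 for Mslnl, 0.349 for Ckb, 0.67 for Kirrel3, -0.0165 for Tmsb4x and -0.0961 for Kirrel2; no named library or type ratio turned. The largest-member, assigned-receptor, unthinned, 1-UMI and mean-filter settings were chosen after seeing the data. The cause of these shifts was not tested beyond what each setting removes. Depth limits mainly Ncam2 itself, a single UMI in 252 of 368 members, and receptors seen in 1 or 2 cells.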
